A study of Homo sapiens with 10 samples.

Results

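The cadherins and protocadherins were taken as every gene whose name is CDH or PCDH followed by a number, any name beginning with PCDHA, PCDHB or PCDHG, FAT1 to FAT4, and DCHS1 and DCHS2. The rule found 99 genes among 60573, with 5 type I cadherins, 13 type II cadherins, 5 other cadherins, 6 FAT and Dachsous genes, 11 nonclustered protocadherins, and 16 alpha, 19 beta and 24 gamma protocadherins. RNA was counted in U266, an established human multiple myeloma line that the labels class as plasma cells. Each cell population carried a lentiviral dCas9-VPR, a nuclease-dead Cas9 fused to transcriptional activators, and was kept in puromycin and blasticidin. In 5 libraries, A to E, the guide RNA was aimed at the start site of EFNB2, which encodes the cell-surface ligand ephrin-B2 (EFNB2 guide). In 5 further libraries, also A to E, it was a scrambled guide with no target (control guide). Whether libraries of one guide came from separate cultures or clones is not stated in the sources used here, so p-values measure the spread between these libraries, which may be technical.

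Cadherins are calcium-dependent adhesion proteins. Classical type I and type II cadherins bind their own kind on a neighbouring cell and hold on to the actin skeleton through beta-catenin, plakoglobin, p120-catenin and alpha-catenin. FAT and Dachsous proteins are giant cadherins that pair across cells in planar polarity. Clustered protocadherins lie in 3 arrays in 5q31, where each alpha or gamma gene joins its own first exon to constant exons shared by the array, and neurons switch on a few promoters per cell to give a surface identity. Those promoters hold a conserved element with the core CGCT that is bound by the insulator protein CTCF. N-cadherin (CDH2), the type I cadherin of nerve and mesenchyme, has been described on myeloma cells.

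The promoters below are from the 5q31 arrays, which took most of the members' counts. RefSeq promoter windows, running 250 bases before to 50 bases after the gene start in GRCh38.p14, were at hand for 71 of the 99 members, 47 of them in the 5q31 arrays. Searched on both strands, CGCT was in 12 of 13 alpha, 14 of 14 beta and 20 of 20 gamma windows, and in 70% of all 35116 RefSeq windows. For each array the 6-base word holding CGCT that was in most of its windows was then found, so these words were chosen from the same promoters and their shares are a description. In the gamma array the word was CGCTGT, in 17 of 20 gamma windows and 11.2% of all RefSeq windows. In the beta array it was GGCGCT, in 13 of 14 beta windows and 21.7% of all. In the alpha array it was GTCGCT, in 11 of 13 alpha windows and 7.97% of all. The words share their CGCT, so one site can match more than one of them. Below are the bases before the gene start on the plus strand, each ending before the first base of the gene in RefSeq and in GENCODE 29, with the word of the array in capitals. PCDHGA1, PCDHGB1 and PCDHGA2 are shown because their counts rose with the EFNB2 guide, PCDHGA6 and PCDHGA7 because they were among the members with most reads and did not pass the test, PCDHB15 because it fell, and PCDHA10 as an alpha gene below the filter whose counts did not overlap between guides. PCDHGB1 has more than one RefSeq entry and the first is shown.
PCDHGA1, chr5:141330264-141330513: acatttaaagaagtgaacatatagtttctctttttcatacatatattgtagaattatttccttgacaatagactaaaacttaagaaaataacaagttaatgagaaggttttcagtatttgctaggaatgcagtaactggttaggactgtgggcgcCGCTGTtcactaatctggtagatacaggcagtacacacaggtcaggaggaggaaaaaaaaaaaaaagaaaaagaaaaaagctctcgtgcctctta
PCDHGB1, chr5:141349849-141350098: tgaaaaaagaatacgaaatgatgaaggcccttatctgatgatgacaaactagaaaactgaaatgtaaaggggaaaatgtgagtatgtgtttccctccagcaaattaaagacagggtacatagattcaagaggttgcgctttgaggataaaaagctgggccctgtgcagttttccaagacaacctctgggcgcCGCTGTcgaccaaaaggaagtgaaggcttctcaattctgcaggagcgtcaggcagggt
PCDHGA2, chr5:141338510-141338759: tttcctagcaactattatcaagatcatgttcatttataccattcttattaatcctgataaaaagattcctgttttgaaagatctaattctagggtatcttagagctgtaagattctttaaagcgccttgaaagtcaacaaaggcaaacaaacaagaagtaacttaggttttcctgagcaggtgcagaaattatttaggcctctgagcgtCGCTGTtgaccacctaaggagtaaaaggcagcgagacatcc
PCDHGA6, chr5:141373641-141373890: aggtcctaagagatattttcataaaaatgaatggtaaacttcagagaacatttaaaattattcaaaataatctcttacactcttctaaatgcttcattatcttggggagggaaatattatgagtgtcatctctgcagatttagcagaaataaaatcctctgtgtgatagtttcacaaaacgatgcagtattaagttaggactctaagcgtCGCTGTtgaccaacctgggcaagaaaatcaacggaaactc
PCDHGA7, chr5:141382492-141382738: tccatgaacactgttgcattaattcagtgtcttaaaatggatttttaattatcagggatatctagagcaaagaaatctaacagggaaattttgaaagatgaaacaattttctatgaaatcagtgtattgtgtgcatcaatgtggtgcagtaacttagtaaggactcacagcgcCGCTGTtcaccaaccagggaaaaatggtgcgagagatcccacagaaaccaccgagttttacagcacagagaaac
PCDHB15, chr5:141245145-141245348: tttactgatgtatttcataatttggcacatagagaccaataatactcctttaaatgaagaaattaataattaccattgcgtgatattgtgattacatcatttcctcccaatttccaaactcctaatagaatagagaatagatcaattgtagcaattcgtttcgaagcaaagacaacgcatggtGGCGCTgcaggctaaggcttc
PCDHA10, chr5:140855647-140855882: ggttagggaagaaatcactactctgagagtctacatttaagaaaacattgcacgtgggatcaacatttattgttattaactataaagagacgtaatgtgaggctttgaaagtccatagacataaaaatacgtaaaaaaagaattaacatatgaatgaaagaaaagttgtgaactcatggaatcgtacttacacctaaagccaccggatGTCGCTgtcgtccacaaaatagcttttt
The word began 95 bases before the RefSeq start in PCDHGA1, 58 in PCDHGB1, 41 in PCDHGA2, 40 in PCDHGA6, 77 in PCDHGA7, 67 in PCDHB15 and 42 in PCDHA10. Among gamma genes it was in the windows of 5 of 6 that rose, 10 of 12 that did not pass the test and 2 of 2 not tested. The word was thus present in most gamma windows whether or not the gene rose.

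Libraries held 47267929 to 56513336 counts, of which the 99 members took 2541 to 3302. Levels are given as CPM, counts scaled to library size, on which 3 counts equal 0.0537 to 0.0627 CPM. EFNB2 had 52, 58, 60, 73 and 61 counts with the EFNB2 guide, against 9, 7, 8, 6 and 2 with the control guide (log2 fold change 3.32 ± 0.25 SE, adjusted p = 4.69e-08 by edgeR's quasi-likelihood test). Summed over 8 plasma cell markers, levels were 5507 to 5791 CPM under the EFNB2 guide, against 5796 to 6597 CPM under the control guide. JCHAIN, XBP1 and SLAMF7 were higher and SDC1, TNFRSF17 and MZB1 lower, with SDC1 at a mean of 2121 CPM under the EFNB2 guide, against 3015 CPM under the control guide. The epithelial marker EPCAM, the endothelial marker VWF and the T cell marker CD3D had 0 or 1 count in every library, but other markers of the same lists were read, with 62 to 97 counts a library for KRT18, 74 to 138 for PECAM1, 133 to 233 for CD3E and 282 to 530 for TRAC. Over 6 neuronal markers the sum was 29.3 to 31.8 CPM with the EFNB2 guide, against 18.7 to 21.5 CPM with the control guide, with SNAP25, SYT1 and TUBB3 higher, while STMN2 was at 0 in every EFNB2 guide library. RBFOX3, below the filter, had 33 counts with the EFNB2 guide and 77 with the control guide, and NEFL had 23 with the EFNB2 guide and 1 with the control guide. Over 5 T cell markers it was 12.1 to 13.3 CPM with the EFNB2 guide, against 9.95 to 11.3 CPM with the control guide, and over 6 fibroblast markers 25.6 to 30.1 CPM with the EFNB2 guide, against 20.2 to 27.3 CPM with the control guide. Members of these lists moved both ways, with TRAC and COL1A1 higher and CD8A and COL3A1 lower. EFNB2 guide library D stood apart in 20 genes, which are described with the members that were high in it.

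Members of the cadherin and protocadherin families had few reads in U266. Of the 99 members, 6 had no count in any library (CDH5, CDH6, CDH16, PCDHA14, PCDHAC2 and PCDHB19P), 30 had 1 to 9 counts over the 10 libraries, and 63 had 10 or more. Of these, 29 had enough counts for the test across genes. The filter asks for a minimum level in 5 libraries, and counts over the tested members describe those 29 alone. CDH17, CDH10, PCDH9, PCDHGB7 and CDH18 reached that level in all 5 EFNB2 guide libraries and in fewer than 5 control libraries, so they entered through the EFNB2 guide, and 4 of these 5 were then called higher. Of the 22 members at that level in all 10 libraries, 6 were called higher, 1 lower and 15 neither. The defining adhesion molecules of epithelium, endothelium and nerve were at or near 0. E-cadherin (CDH1) had 1 count in the EFNB2 guide libraries and 0 in the controls, VE-cadherin (CDH5) had none, and N-cadherin (CDH2) had 12 counts with the EFNB2 guide, 7 of them in library D, and 0 with the control guide. The tested members were low for the transcriptome too. Their median log2 CPM was -0.05, against 3.60 for all 17833 genes tested, and the highest of them, CDH24, lay at the 44.6th percentile of level.

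The reads that there were came mainly from the gamma array. Gamma genes took 68.8% of all member counts, type II cadherins 15%, other cadherins 6.25%, beta genes 4.22% and alpha genes 3.77%, leaving 1.3% for nonclustered protocadherins, 0.361% for FAT and Dachsous and 0.268% for type I cadherins. All 24 gamma genes had 10 or more counts, against 9 of 16 alpha genes, 9 of 19 beta genes, 4 of 13 type II cadherins and 3 of 6 FAT and Dachsous genes. Per kilobase of exon not shared with another gene on the same strand, CDH24 was the highest member with the EFNB2 guide and PCDHGB2 with the control guide. CDH24 was at 2.17 CPM per kb with the EFNB2 guide and 1.86 with the control guide, PCDHGB2 at 2.1 CPM per kb with the EFNB2 guide and 2.3 with the control guide, and PCDHGA7 at 1.93 with either guide. CDH17 stood at 1.31 CPM per kb with the EFNB2 guide and 0.0417 with the control guide, so its place among members differed between guides. How the authors' counting treated reads in the shared constant exons, 2181 bases in the gamma array, is not given in the sources used here. Reads credited to a gamma gene there would raise its level per kb. The ranks of PCDHGB2 and PCDHGA7 beside CDH24, which shares no exon bases, therefore depend on that treatment. PCDHAC2, which shares the alpha constant exons, had 0 counts in every library, so reads there were not credited to every alpha gene. In the gamma array PCDHGC4 had 25 and PCDHGC5 20 counts over the 10 libraries, against 3290 for PCDHGA7. Reads in the gamma constant exons were thus not all credited to every gamma gene, but they may have been credited to single genes.

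**Figure D1:**
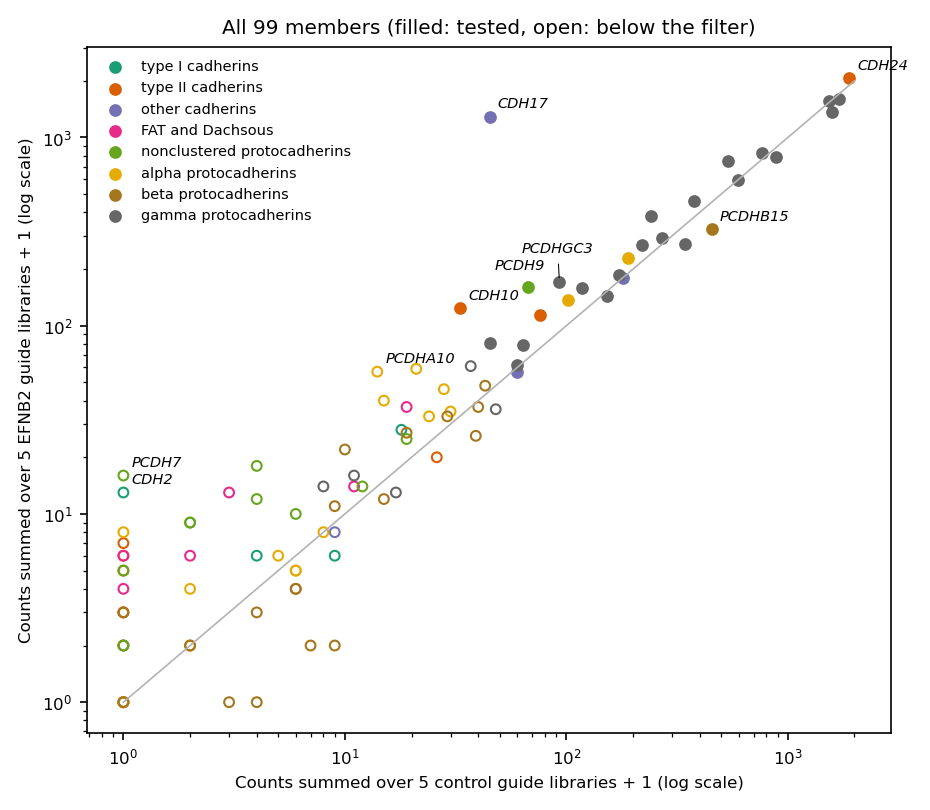
Counts of each of the 99 members summed over the 5 EFNB2 guide libraries (vertical) against the 5 control guide libraries (horizontal), both as count + 1 on log scales, coloured by class; the grey line marks equal counts, filled points were tested and open points were below the filter. CDH17, at 1287 counts with the EFNB2 guide and 44 with the control guide, lies farthest above the line among the tested members, and the gamma genes lie along it.

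Of the 29 tested members, 10 were higher, 1 was lower and 18 did not pass an adjusted p of 0.05. That is 37.9% of members, against 45.4% of all tested genes (22.8% higher and 22.6% lower) and 31.4% of the 8040 tested genes with a mean log2 CPM under 3, a limit that holds all 29 members and was chosen after their levels were seen. The share of members called lay between these backgrounds, but it is a description only. It includes 4 members that entered the test through the EFNB2 guide and were called higher. Of the 22 members at the filter level in all 10 libraries, 6 were higher and 1 was lower. The members' median log2 CPM of -0.05 lies far below the limit of 3, so neither background is matched to their level. The median and overlap counts that follow also include members that entered through the EFNB2 guide. The median log2 fold change was 0.22 over the tested members and 0.01 over all tested genes. The groups did not overlap for 8 members, 7 with every EFNB2 guide library above every control library (15% of all tested genes) and 1 below (15.2%), against 30.3% of all tested genes in either direction. Without EFNB2 guide library D, which stands apart, 8 members were higher and 0 were lower.

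By limits of at most 10 summed counts with one guide and at least 100 with the other, 0 members switched. CDH17 had 1287 summed counts with the EFNB2 guide and 44 with the control guide. Its reads appeared with the EFNB2 guide at a level that no control library came near. This gene encodes LI-cadherin, an adhesion molecule of gut epithelium, and lies on the minus strand of chromosome 8 at 94127171 to 94217303 (GRCh38, GENCODE 29). It had 4.54, 5.14, 5.35, 6.05 and 4.41 CPM in EFNB2 guide libraries A to E, against 0.208, 0.136, 0.269, 0.129 and 0.0729 CPM in control libraries A to E. These came from 223 to 295 counts a library with the EFNB2 guide and 4 to 15 with the control guide. The groups were far apart, with every EFNB2 guide library high and every control library low. Mean levels were 5.10 ± 0.66 CPM under the EFNB2 guide, against 0.163 ± 0.0762 CPM under the control guide (± SD over 5 libraries of each guide). The fitted log2 fold change was 4.94 ± 0.19 (SE, adjusted p = 2.48e-11), which is 30.8-fold, or 23.6 to 40.1 at 2 SE. It was the 27th largest rise among all genes past the threshold. As the RNA is from bulk cells, more cells with CDH17 RNA and more RNA per cell cannot be told apart. Of 6 epithelial markers 2 were tested, KRT8 and KRT18, and neither passed, EPCAM was at 0 or 1 count, and the sum of the 6 was 1.89 to 2.55 CPM under the EFNB2 guide, against 1.84 to 2.45 CPM under the control guide. Of the 10 nearest tested genes, within 396 kb, 3 were higher and 2 lower, where 22.8% of all tested genes were higher and 22.6% lower. The largest change among these 10 was that of GEM, 32 kb away, with a log2 fold change of 1.43 ± 0.10 (SE, adjusted p = 2.98e-08). Of the 10 nearest tested genes of CDH24, 3 were higher and 2 lower. Near CDH10 these counts were 3 higher and 1 lower, and near PCDH9 4 higher and 1 lower. The largest log2 fold changes there were 2.19 for SLC7A8, 67.8 kb from CDH24, and 2.03 for AC010342.1, 316 kb from CDH10. Near PCDH9 the largest was 0.369 for DIAPH3, 6140 kb away. A local effect was not tested.

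The other non-classical cadherins with enough counts did not pass. CDH26, described in inflamed gut epithelium, averaged 0.702 ± 0.144 CPM under the EFNB2 guide, against 0.665 ± 0.218 CPM under the control guide (log2 fold change 0.08, SE 0.23, adjusted p = 0.813). CDH23, a tip-link protein of hair cells, averaged 0.222 ± 0.0908 CPM under the EFNB2 guide, against 0.220 ± 0.0901 CPM under the control guide (adjusted p = 0.979). CDH23 shares 18.9% of its exon bases with C10orf105 on the opposite strand, so its low count is uncertain. T-cadherin, CDH13, which is anchored by a lipid and has no catenin-binding tail, had 7 counts with the EFNB2 guide and 8 with the control guide.

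Among type II cadherins CDH10 and CDH24 rose. CDH10, a cadherin of brain on the minus strand of chromosome 5 (24487100 to 24644978), had 12, 30, 25, 27 and 29 counts with the EFNB2 guide, against 5, 7, 4, 5 and 11 with the control guide. EFNB2 guide library A was the lowest of its group at 0.22 CPM, just above the highest control library at 0.2 CPM, while the other four EFNB2 guide libraries lay at 0.522 to 0.580 CPM. Mean levels were 0.490 ± 0.152 CPM under the EFNB2 guide, against 0.119 ± 0.0512 CPM under the control guide (log2 fold change 2.02 ± 0.33 SE, adjusted p = 1.35e-04).

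CDH24, the type II cadherin with most reads and known to bind beta-catenin, lies on the minus strand of chromosome 14 (23047062 to 23057538). Its levels were 8.08, 8.64, 8.13, 7.68 and 8.16 CPM with the EFNB2 guide, against 8.51, 6.61, 6.29, 6.44 and 7.07 CPM with the control guide. Control library A was as high as the EFNB2 guide libraries, so the groups overlapped. The log2 fold change was 0.22 ± 0.08 (SE, adjusted p = 0.028), and the adjusted p was 0.0505 to 0.0774 when EFNB2 guide library B or E or control library B, C or D was left out. CDH18, a further brain type II cadherin, averaged 0.446 ± 0.154 CPM under the EFNB2 guide, against 0.277 ± 0.122 CPM under the control guide, and did not pass (log2 fold change 0.68, SE 0.31, adjusted p = 0.0873). CDH9 had 19 counts with the EFNB2 guide and 25 with the control guide, and the other 9 type II cadherins had at most 6 counts with either guide. CDH10 and CDH18 lie 3910 kb apart on chromosome 5, with CDH12 between them.

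PCDH9, a nonclustered protocadherin of brain on the minus strand of chromosome 13 (66302834 to 67230445), also rose. It had 36, 41, 25, 35 and 23 counts with the EFNB2 guide, against 14, 13, 20, 9 and 10 with the control guide. Every EFNB2 guide library was above every control library. Mean levels were 0.630 ± 0.139 CPM under the EFNB2 guide, against 0.245 ± 0.0768 CPM under the control guide (log2 fold change 1.36 ± 0.24 SE, adjusted p = 2.74e-04). CDH10, PCDH9 and CDH18, of which CDH18 did not pass, are known from brain. The sum of the 6 neuronal markers given above was also higher with the EFNB2 guide, though RBFOX3 and STMN2 were not. CDH9, of the same type II class as CDH10 and CDH18, was not higher, with 19 counts with the EFNB2 guide and 25 with the control guide. The part of the marker sum in these values was not tested. On the deposited normalized values, taken as log2(value + 1), a scale that understates changes of low genes, the log2 fold change was 2.37 for CDH17, 0.40 for CDH10 and 0.38 for PCDH9.

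**Figure D2:**
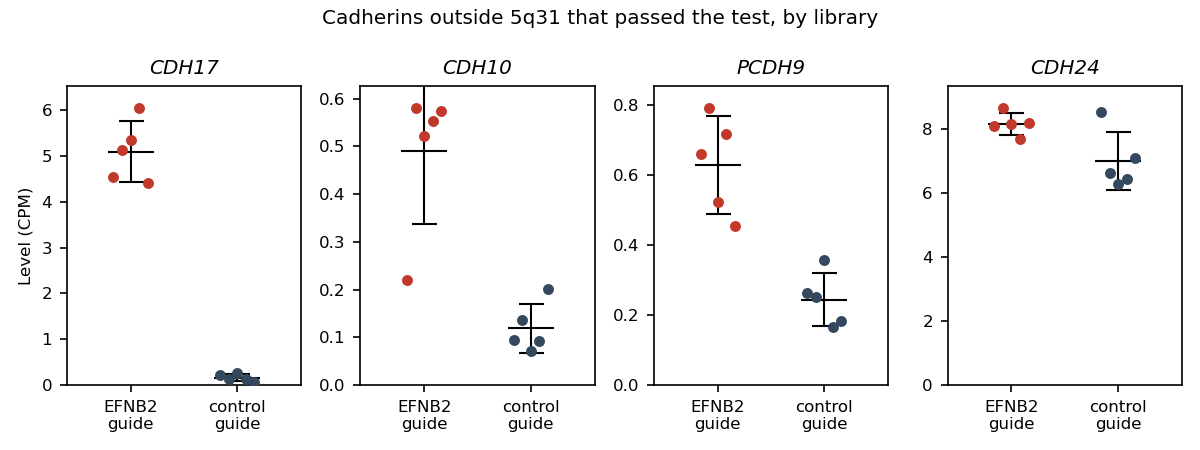
Level in CPM of the 4 members outside 5q31 that passed the test; each point is 1 library, the EFNB2 guide on the left and the control guide on the right, with the mean and SD (n = 5 each) as lines. CDH17, CDH10 and PCDH9 show no overlap between guides, whereas in CDH24 control library A, at 8.51 CPM, lies among the EFNB2 guide libraries.

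In the gamma array 6 of 19 tested genes rose, against 22.8% of all tested genes, none fell past the threshold, against 22.6% of all tested genes, and 13 did not pass. These counts are a description only. Among the 6, PCDHGB7 entered the test through the EFNB2 guide, with 2 control libraries at the filter level. PCDHGA8 lay at the threshold, and PCDHGC3 did not pass without EFNB2 guide library D. The summed level of the array was 40.1 ± 1.01 CPM under the EFNB2 guide, against 36.5 ± 1.89 CPM under the control guide, with ranges that just overlapped, 38.6 to 41.4 CPM under the EFNB2 guide and 33.7 to 38.7 CPM under the control guide. PCDHGA7, PCDHGA6 and PCDHGB2 together held 46.7% of gamma counts, and none of the 3 passed the test. PCDHGA7 averaged 6.28 ± 0.686 CPM under the EFNB2 guide, against 6.28 ± 0.315 CPM under the control guide, and its sign turned under several settings. PCDHGA6 had a log2 fold change of 0.12 (SE 0.09, adjusted p = 0.298) and PCDHGB2 one of -0.12 (SE 0.07, adjusted p = 0.202).

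Of the 6 gamma genes that rose, 3 are among the first 4 of the array. PCDHGA1, the first gamma gene, had 1.41, 1.59, 1.71, 1.31 and 1.48 CPM with the EFNB2 guide, against 1.13, 0.562, 0.842, 0.845 and 1.04 CPM with the control guide. The groups did not overlap, and the log2 fold change was 0.76 ± 0.16 (SE, adjusted p = 0.00133). PCDHGB1, the fourth in order, had 3.12, 3.0, 2.99, 2.79 and 2.93 CPM with the EFNB2 guide, against 2.00, 2.09, 1.85, 2.35 and 1.64 CPM with the control guide. These did not overlap either (log2 fold change 0.58 ± 0.10 SE, adjusted p = 2.17e-04). PCDHGA2, between them, averaged 1.80 ± 0.248 CPM under the EFNB2 guide, against 1.39 ± 0.158 CPM under the control guide (log2 fold change 0.37, SE 0.12, adjusted p = 0.0231), and its adjusted p was 0.0526 to 0.0634 without EFNB2 guide library B or D or control library C or D. PCDHGA3, the remaining gene of the first 4, was below the filter, with 60 counts with the EFNB2 guide and 36 with the control guide (ratio of normalized sums 1.77, 95% interval 1.15 to 2.76, exact and for counting error only). Position in the array was noticed after the values were seen, and it was not tested.

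The other 3 gamma genes that rose were low. PCDHGB7 averaged 0.315 ± 0.059 CPM under the EFNB2 guide, against 0.162 ± 0.0677 CPM under the control guide (log2 fold change 0.94, SE 0.28, adjusted p = 0.0134). PCDHGA8 averaged 0.617 ± 0.14 CPM under the EFNB2 guide, against 0.433 ± 0.0777 CPM under the control guide, and its adjusted p of 0.0498 (log2 fold change 0.51) lay at the threshold and was above it in 14 of 18 alternatives, among them 0.136 without EFNB2 guide library A. PCDHGC3, a C-type gene that is read in many tissues outside the stochastic choice, had 20, 25, 27, 70 and 28 counts with the EFNB2 guide, against 16, 12, 22, 20 and 22 with the control guide. Library D alone stood high, and the groups overlapped. Its log2 fold change was 0.98 ± 0.34 (SE, adjusted p = 0.0275) with library D and 0.52 (adjusted p = 0.0759) without it; the adjusted p was 0.0663 without control library B.

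Of the 13 gamma genes that did not pass, PCDHGB6 came nearest (log2 fold change 0.38, SE 0.15, adjusted p = 0.0509), and it passed in 5 alternatives, with adjusted p-values of 0.0244 to 0.049. PCDHGB5 is the 1 tested member whose EFNB2 guide libraries all lay below the controls, at 1.0 to 1.11 CPM under the EFNB2 guide, against 1.17 to 1.34 CPM under the control guide (log2 fold change -0.25, SE 0.11, adjusted p = 0.0763). PCDHGB3 lay wholly above its controls, at 3.07 to 3.63 CPM in EFNB2 guide libraries and 2.33 to 3.04 CPM in control libraries (adjusted p = 0.0905). So did PCDHGA11, at 0.287 to 0.334 CPM in EFNB2 guide libraries and 0.208 to 0.272 CPM in control libraries (adjusted p = 0.174). The log2 fold changes of PCDHGA4, PCDHGA5, PCDHGA9, PCDHGA10, PCDHGA12 and PCDHGB4 lay between -0.09 and 0.21. Below the filter, besides PCDHGA3, were the pseudogenes PCDHGB8P, with 35 counts with the EFNB2 guide and 47 with the control guide, and PCDHGB9P, with 12 with the EFNB2 guide and 16 with the control guide. The C-type genes PCDHGC4 and PCDHGC5 had 15 and 13 counts with the EFNB2 guide, against 10 and 7 with the control guide.

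**Figure D3:**
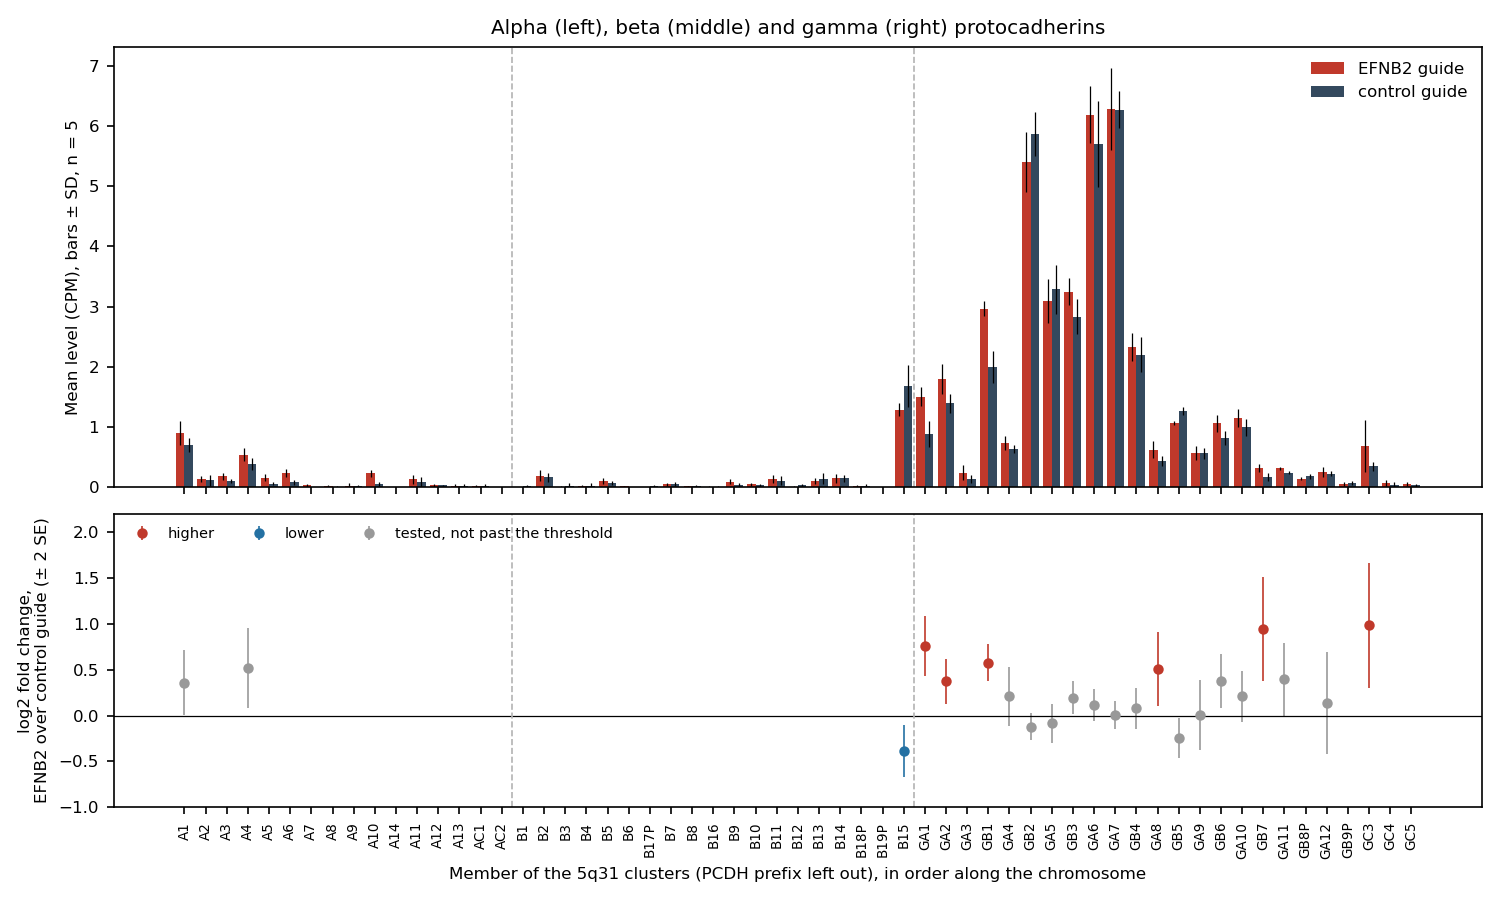
Alpha, beta and gamma protocadherins of 5q31 in order along the chromosome: above, mean CPM with the EFNB2 guide (left bar of each pair) and the control guide (right bar) with SD, n = 5; below, the log2 fold change of each tested gene with 2 SE either side. Reads concentrate between PCDHGB2 and PCDHGA7, where log2 fold changes lie from -0.12 (PCDHGB2) to 0.20 (PCDHGB3) and none passed the test. The filled colours mark the 6 gamma genes that rose and PCDHB15, which fell.

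The alpha array was low and its summed level was higher with the EFNB2 guide. It was 2.41, 2.69, 2.36, 2.68 and 2.87 CPM with the EFNB2 guide, against 1.68, 1.78, 1.51, 1.69 and 1.48 CPM with the control guide. The ranges did not overlap, although neither tested alpha gene passed alone. PCDHA4 had a log2 fold change of 0.52 (SE 0.22, adjusted p = 0.0675) and PCDHA1 one of 0.36 (SE 0.18, adjusted p = 0.118). PCDHA1, PCDHA3 and PCDHA5 share exon bases with a gene on the opposite strand, AC005609.5, which had 62 counts. Of the 7 alpha genes below the filter with 10 or more counts, 3 lay wholly above their controls with the EFNB2 guide, against 4.39% of all such genes. PCDHA10 had 7, 13, 12, 13 and 11 counts with the EFNB2 guide, against 4, 3, 1, 0 and 5 with the control guide. PCDHA6 had 8, 11, 15, 11 and 13 counts with the EFNB2 guide, against 3, 2, 3, 8 and 4 with the control guide, and EFNB2 guide library A and control library D, both with 8 counts, lay side by side at the boundary. PCDHA5 had 39 summed counts with the EFNB2 guide and 14 with the control guide. The others overlapped, with 45 counts for PCDHA3, 34 for PCDHA2, 32 for PCDHA11 and 7 for PCDHA12 with the EFNB2 guide, against 27 for PCDHA3, 29 for PCDHA2, 23 for PCDHA11 and 7 for PCDHA12 with the control guide.

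The beta array held the single fall. PCDHB15 had 1.19, 1.41, 1.17, 1.39 and 1.27 CPM with the EFNB2 guide, against 2.21, 1.82, 1.52, 1.56 and 1.29 CPM with the control guide. Control library E lay among the EFNB2 guide libraries, so the groups overlapped. The log2 fold change was -0.38 ± 0.14 (SE, adjusted p = 0.0389), and the call was lost in 10 of 19 alternatives. Among these, leaving out EFNB2 guide library A, C, D or E or control library A or B gave adjusted p-values of 0.0506 to 0.0995, and leaving out both A libraries gave -0.24 (adjusted p = 0.162). The other 8 beta genes with 10 or more counts were below the filter, the highest being PCDHB2 with 47 counts with the EFNB2 guide and 42 with the control guide, and 10 beta genes had under 10 counts. PCDHB5 had 26 counts with the EFNB2 guide and 18 with the control guide. With the EFNB2 guide PCDHB9 had 21 counts, PCDHB11 32 and PCDHB10 10, against 9 for PCDHB9, 28 for PCDHB11 and 8 for PCDHB10 with the control guide. PCDHB13 had 25 counts with the EFNB2 guide and 38 with the control guide, 17 of them in control library C, PCDHB14 had 36 with the EFNB2 guide and 39 with the control guide, and PCDHB7 had 11 with the EFNB2 guide and 14 with the control guide. These 7 overlapped between guides.

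In all, 34 members had 10 or more counts but were below the filter. Summed counts were larger with the EFNB2 guide for 25 of them, larger with the control guide for 8 and equal for 1, and 3 did not overlap, the alpha genes named above. That is 73.5% with larger sums with the EFNB2 guide and 8.82% wholly above the controls, against 54.7% and 4.39% of all 7447 genes below the filter with 10 or more counts. In type I cadherins CDH15, the M-cadherin of muscle, had 27 counts with the EFNB2 guide and 17 with the control guide, and CDH4 had 5 with the EFNB2 guide and 8 with the control guide. The summed level of FAT and Dachsous genes was 0.188 to 0.367 CPM under the EFNB2 guide, against 0.0365 to 0.33 CPM under the control guide. The largest share was that of DCHS1, the ligand of FAT4, with 8, 8, 4, 9 and 7 counts with the EFNB2 guide, against 1, 14, 1, 0 and 2 with the control guide. Control library B held 14 of the 18 control counts, so the groups overlapped. DCHS2 had 13 counts with the EFNB2 guide and 10 with the control guide, FAT1 had 12 with the EFNB2 guide and 2 with the control guide, and FAT4 had 3 with the EFNB2 guide and 0 with the control guide. Among nonclustered protocadherins PCDH1 had 24 counts with the EFNB2 guide and 18 with the control guide, and PCDH12 had 13 with the EFNB2 guide and 11 with the control guide. Of PCDH20, with 9 counts with the EFNB2 guide and 5 with the control guide, 95.8% of exon bases are shared with AL592490.1 on the same strand.

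With no filter, 15 members were higher and 1 was lower, where 12.4% of 35408 genes were higher and 11.2% lower. The members added were PCDHA5, PCDHA6, PCDHA7, PCDHA10, PCDH7 and CDH2, and PCDHGA8 no longer passed. PCDHA7 had 7 counts, PCDH7 15 and CDH2 12 with the EFNB2 guide, each against 0 with the control guide. Outside library D these 3 genes had at most 3 counts in any library.

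PCDH7 and CDH2 took most of those counts from one library. EFNB2 guide library D stood apart from the other 9: 20 genes reached at least 15 counts there and at least 4 times their highest count elsewhere, against 0 to 3 such genes in any other library. PTPRZ1, a receptor phosphatase of glia, had 227 counts in library D and 0 to 20 in the others. OLIG1, a transcription factor of oligodendrocytes, had 43 counts in library D and 0 to 9 in the others. POSTN, a matrix gene, had 70 counts in library D and 0 to 8 in the others. The rest of the 20 genes are not named here, and what they share was not tested. Of the members, 9 had at least 4 counts in library D and at least 2 times their highest count elsewhere, against 0 or 1 member in each other library. PCDH7 had 13 counts in library D and 2 over the other EFNB2 guide libraries, PCDH15 had 11 and 6, PCDH10 had 9 and 2, PCDH19 had 8 and 0, and CDH2 had 7 and 5. PCDH17 had 6 counts in library D and 2 over the other EFNB2 guide libraries, CDH11 had 4 and 0, FAT3 had 4 and 1, and PCDHGC3 had 70 and 100. In the control libraries these genes, PCDHGC3 aside, summed to 0 to 3 counts each, with PCDH15 at 17 counts with the EFNB2 guide and 3 with the control guide in all, and PCDH10 at 11 with the EFNB2 guide and 3 with the control guide. The summed level of nonclustered protocadherins was 1.99 CPM in library D and 0.652 to 0.928 CPM in the other EFNB2 guide libraries, against 0.275 to 0.52 CPM with the control guide. The part of library D in results other than those recomputed without it was not tested.

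**Figure D4:**
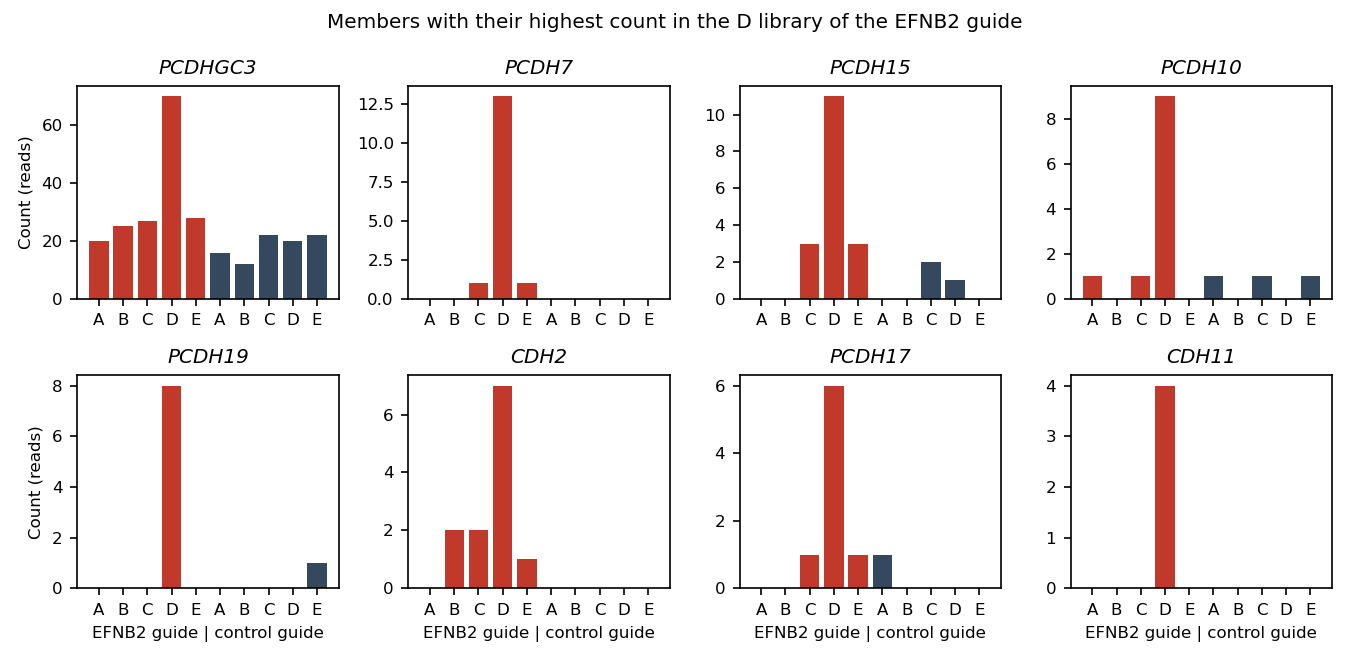
Raw counts per library of 8 of the 9 members that were highest in library D of the EFNB2 guide; bars on the left of each panel are EFNB2 guide libraries A to E and bars on the right control libraries A to E, with a scale of its own in each panel. PCDHGC3 reaches 70 counts in library D against at most 28 elsewhere, and the other panels show single-library peaks of 4 to 13 counts.

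Partners and relatives of the cadherins were read from 7 lists, whose counts stand beside 22.8% of all tested genes higher and 22.6% lower. Of 12 tested catenins and adapters, which tie cadherins to the skeleton, 4 rose and 4 fell (median log2 fold change -0.03). Plakophilin 2 (PKP2) averaged 168 ± 8.62 CPM under the EFNB2 guide, against 105 ± 2.50 CPM under the control guide (log2 fold change 0.68, adjusted p = 3.46e-10). p120-catenin (CTNND1) rose by 0.62 and plakoglobin (JUP) by 0.49 on the log2 scale, whereas PKP4 fell by 0.23 and beta-catenin (CTNNB1) fell by 0.09. Alpha-catenin (CTNNA1) had a log2 fold change of 0.06 and did not pass (adjusted p = 0.0744). CTNND1 was the lowest of those named above, at 9.89 ± 0.799 CPM under the EFNB2 guide, against 6.44 ± 0.325 CPM under the control guide. The remaining falls, AFDN and CTNNA3, were below the level set for naming and were named after their values were seen. Log2 fold changes were -0.93 for AFDN (adjusted p = 4.46e-05) and -0.46 for CTNNA3 (adjusted p = 0.0203).

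Of 9 tested genes of other cadherin families, 2 rose and 1 fell (median 0.10). The fall was CELSR2, a planar polarity cadherin, with a log2 fold change of -0.35 (adjusted p = 6.00e-05). The rises were named after their values were seen, because both were below the level set for naming. CDHR1, a photoreceptor cadherin, had 71 to 107 counts in the EFNB2 guide libraries, against 1 count in all in the control libraries (adjusted p = 3.51e-10). CDHR1 entered the test through the EFNB2 guide, so its call and its place among the 2 rises are a description only. DSG1, a desmosomal cadherin of skin, had 53 to 78 counts in the EFNB2 guide libraries and 15 to 33 in the control libraries (log2 fold change 1.59, adjusted p = 2.88e-06). Both showed no overlap between guides.

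Of 7 tested transcription factors known for acting on cadherin genes, 1 rose and 3 fell (median -0.03). ZEB1, a repressor of E-cadherin, fell by 0.20 and TCF4 fell by 0.12 on the log2 scale. The rise was ZEB2, named after its values were seen (log2 fold change 2.50, adjusted p = 9.47e-05). ZEB2 had 16 to 47 counts in the EFNB2 guide libraries and 3 to 8 in the control libraries. It entered the test through the EFNB2 guide, so its call is a description only. The remaining fall, SNAI3, was also named after its values were seen. It was the largest fall of this list (log2 fold change -0.41, adjusted p = 0.0113), with no overlap between guides. Of 14 regulators of the clustered protocadherin locus, 6 rose and 3 fell (median 0.03). DNA methyltransferases moved both ways, with log2 fold changes of 0.33 for DNMT3B, 0.16 for DNMT1 and -0.14 for DNMT3A, which did not pass in 9 alternatives. The cohesin subunit SMC3 rose by 0.13, and the silencing factors LRIF1 and SMCHD1 fell by 0.22 and 0.09. CTCF had a log2 fold change of 0.02 and did not pass (adjusted p = 0.492), with -0.01 on the deposited normalized values.

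Of 11 tested genes of cadherin proteolysis, 3 rose and 1 fell (median -0.03). FURIN, which removes the propeptide of classical cadherins, averaged 106 ± 1.76 CPM under the EFNB2 guide, against 65.1 ± 3.82 CPM under the control guide (log2 fold change 0.70, adjusted p = 4.86e-10), and ADAM10, which sheds their outer part, rose by 0.34. The gamma-secretase subunit APH1A fell by 0.09 with an adjusted p of 0.049 that was above the threshold in 12 alternatives. A list named for FAT partners also holds genes that are not established partners, such as the nuclear factors TEAD1 and TEAD3. Of its 9 tested genes, 1 rose and 4 fell (median -0.14). Log2 fold changes were 0.20 for ATN1, -0.64 for TEAD3, -0.39 for TMEM150A and -0.14 for TEAD1. Of 12 tested genes of protocadherin signalling, which links the shared tail to the WAVE complex and to focal adhesion kinases, 2 rose and 6 fell (median -0.18). CYFIP1 rose by 0.96 and FYN by 0.29, while NCKAP1L, PTK2B and NCKAP1 fell by 0.87, 0.34 and 0.32 on the log2 scale. None of these list counts was tested against other lists.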

How the data were processed

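The 10 libraries, 5 for each guide, were put in groups by their labelled genotype. Per the labels' protocols, poly(A) RNA went into strand-specific libraries for paired reads. GRCh38, STAR 2.27a, Partek and DESeq2 appear, without roles, in the submitters' processing notes. Annotation and strand setting for counting were not given in the sources used here. Raw counts per gene, as the authors deposited them, gave the results. A second deposited table, of normalized signal, served in an alternative as log2(value + 1) with limma-trend. Rows that name no gene (4, at most 4.01e-04% of counts) were left out.

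Genes passing filterByExpr were scaled by TMM and compared by edgeR 4.0.16 (R 4.3.3), with the quasi-likelihood test (glmQLFit, glmQLFTest), guide as the single term and Benjamini-Hochberg adjustment over all 17833 genes tested. Calls needed an adjusted p of 0.05 or less, and all adjusted p-values are from this test unless a setting is named. CPM divide counts by the TMM-scaled total. Intervals of count ratios are exact conditional binomial intervals at 95% and cover counting error only, since reads without molecular identifiers are not independent molecules. The common biological coefficient of variation was 0.0489. Exon lengths and shared exons came from GENCODE 29, and promoters from RefSeq (GRCh38.p14). The edgeR fit alone was run on simulated counts in which few genes changed. That run does not cover data in which 45.4% of tested genes are called.

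The members and lists were chosen with earlier results of these data known. Every tested member is named; below the filter, members with 10 or more summed counts are named with those counts. From each list the text names up to 3 rises and 3 falls past the threshold (mean log2 CPM 1 or more), and CTNNB1, CTNND1, CTNNA1, JUP, CTCF and SMCHD1. CDHR1, DSG1, ZEB2, SNAI3, AFDN, CTNNA3 and the genes of library D were named after their values were seen. Alternatives were DESeq2 1.42.0, limma-voom (limma 3.58.1), RLE factors, library totals alone, no filter, at least 1 CPM in 5 libraries, a replicate block, the deposited normalized values, each library left out in turn and, added after seeing the data, both A libraries left out.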

Additional observations from a re-analysis of the deposited data

Results flagged for a closer look

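In 126 groups of 5 libraries, each a member with one guide, 16 had a single library whose gap to the nearest other library exceeded the 95% limit of Dixon's test (0.71 of the group's range). Chance flags about 1 in 20 groups of normally distributed values. That rate does not hold for low counts with ties, such as FAT1 with the control guide, flagged for 2 counts against 0 in the others. The 16 can therefore not be set against it. Of the 16, 5 were in EFNB2 guide library D, each with that library highest: PCDHGC3 at 1.43 CPM, PCDH7 at 0.266 CPM, PCDH15 at 0.225 CPM, PCDH10 at 0.184 CPM and PCDHB13 at 0.184 CPM. Control library A was the lowest for 3 gamma genes, PCDHGA6 at 4.46 CPM, PCDHGA5 at 2.59 CPM and PCDHGB3 at 2.33 CPM. The same library was the highest for PCDH1 at 0.132 CPM. EFNB2 guide library A was the lowest for CDH10 at 0.22 CPM. EFNB2 guide library B was the highest for PCDHGB3 at 3.63 CPM. EFNB2 guide library E was the highest for PCDHA3 at 0.277 CPM and the lowest for PCDHGA4 at 0.534 CPM. Control library B was the highest for DCHS1 at 0.272 CPM, and control library C was the highest for PCDHB13 at 0.304 CPM and for FAT1 at 0.0358 CPM.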

How the results depend on the processing

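Over 19 alternatives the 11 members past the threshold kept their direction, and 6 of them, CDH17, CDH10, PCDH9, PCDHGB1, PCDHGA1 and PCDHGB7, stayed past it wherever they were tested. On the deposited normalized values, as log2(value + 1), their log2 fold changes were smaller, at 2.37, 0.40, 0.38, 0.39, 0.40 and 0.17 in that order, against ranges over the alternatives on counts of 4.76 to 5.21, 1.88 to 2.29, 1.247 to 1.541, 0.52 to 0.65, 0.64 to 0.88 and 0.82 to 1.12. The other 5 gave 0.18 for CDH24, 0.21 for PCDHGA2, 0.16 for PCDHGA8, 0.29 for PCDHGC3 and -0.24 for PCDHB15 on the deposited values. On counts PCDHGA8 lay at 0.30 to 0.60, PCDHGC3 at 0.52 to 1.15 and PCDHB15 at -0.46 to -0.24. Of the 18 others, 4 passed in some alternative (CDH18, PCDHA4, PCDHGB5 and PCDHGB6). Members higher numbered 10, and 5 with at least 1 CPM in 5 libraries, which leaves fewer members to test; leaving out 1 library gave 7 to 13. Members lower numbered 1, and 0 by limma-voom, with library totals alone, with the replicate block or with both A libraries left out, and 2 on the deposited normalized values; leaving out 1 library gave 0 to 1. With the replicate block, which the letters do not justify since same-letter libraries correlated at -0.237 to -0.00305 and none correlated best with its own letter, 9 members were higher. With switch limits of at most 20 and at least 50 counts, 2 members switched, PCDHA10 and PCDHA6. Signs turned for 6 genes not past the threshold, and the cause was not tested. PCDHGA7 was -0.0039 by DESeq2, -0.00054 by limma-voom, -0.0011 with no filter, -0.0021 with the replicate block, -0.025 on the deposited values, -0.066 with both A libraries left out and -0.058 to 0.041 with 1 library left out. PCDHGA9 was -0.0027 by DESeq2, -0.0048 by limma-voom, -0.00033 with no filter, -0.0082 on the deposited values and -0.11 to 0.081 with 1 library left out. CDH23 was -0.0023 and CTCF -0.0051 on the deposited values. With 1 library left out CDH23 lay at -0.16 to 0.25, CDH26 at -0.089 to 0.18 and PCDHGA12 at -0.023 to 0.26. Depth limits the members below the filter, where 3 counts, the limit that a count of 0 allows, are 0.0537 to 0.0627 CPM.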
